A study of Rattus norvegicus with 3 samples.

Results

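Cholesterol is built from acetyl-CoA through mevalonate, farnesyl diphosphate, squalene and lanosterol. The group described here was 8 enzyme genes of that route: Hmgcs1, Pmvk, Idi1, Fdps, Fdft1, Sqle, Tm7sf2 and Hsd17b7. They were chosen by gene symbol, and every probe set that the platform annotation assigned to 1 of these symbols alone was taken. This gave 10 probe sets for 7 genes, out of 12783 probe sets with 1 symbol for 10411 genes. Hmgcs1 was not matched to a probe set, so it is not analysed here. The group holds enzymes only and no receptor gene.

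RNA came from ventricular heart muscle cells of newborn rats, kept in culture for 48 h. The study had 3 groups of 1 array each: unstimulated cells, cells given 20 µM phenylephrine and cells given 1 µM PAMH. Through α1-adrenergic receptors, phenylephrine makes cultured cardiac myocytes enlarge. PAMH is the submitters' name for the other compound, listed by them with the keywords hypertrophy, 5-hydroxytryptamine and pyridine, and the comparison asks how the RNA response to it stands beside that to phenylephrine. No strain, allele or further agent is named in the labels, and the cultures were primary cells, not a cell line. With no replicate cultures, no difference below has a standard error or a p-value, and the small number of arrays sets how precise a ratio can be.

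Most enzymes of this route are controlled together by the SREBP transcription factors, of which SREBP-2 (gene Srebf2) is the main one for sterol synthesis. When sterols in the endoplasmic reticulum run low, SREBP is carried to the Golgi by Scap and cut free, whereas the Insig proteins hold it back when sterols are plentiful. The released factor binds sterol regulatory elements in promoters, usually beside sites for NF-Y and Sp1. In growing cells the pathway supplies cholesterol for new membrane and farnesyl and geranylgeranyl groups that anchor small GTPases.

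The stretches upstream of 4 measured members are shown because genes of this pathway are known for shared promoter elements and these members were all higher on the arrays of treated cells by their brightest probe sets. Each is the 250 bases before the annotated start of the gene from RefSeq (build GRCr8), read 5′ to 3′ on the gene's strand, in pathway order. Capitals mark the NF-Y box CCAAT and the Sp1 box GGGCGG, each searched on both strands (ATTGG and CCGCCC are their reverse complements).
Idi1, chr17:66547525-66547774, minus strand: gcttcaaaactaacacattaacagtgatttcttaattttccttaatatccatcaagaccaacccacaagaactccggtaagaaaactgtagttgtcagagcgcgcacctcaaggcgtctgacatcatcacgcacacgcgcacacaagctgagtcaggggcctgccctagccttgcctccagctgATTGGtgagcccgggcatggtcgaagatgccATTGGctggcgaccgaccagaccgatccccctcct
Fdps, chr2:176804817-176805066, minus strand: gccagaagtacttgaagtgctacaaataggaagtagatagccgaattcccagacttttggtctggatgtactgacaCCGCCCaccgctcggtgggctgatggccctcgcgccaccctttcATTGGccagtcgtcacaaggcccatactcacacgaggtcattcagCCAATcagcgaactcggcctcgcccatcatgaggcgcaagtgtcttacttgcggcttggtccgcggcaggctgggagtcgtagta
Tm7sf2, chr1:212789542-212789791, minus strand: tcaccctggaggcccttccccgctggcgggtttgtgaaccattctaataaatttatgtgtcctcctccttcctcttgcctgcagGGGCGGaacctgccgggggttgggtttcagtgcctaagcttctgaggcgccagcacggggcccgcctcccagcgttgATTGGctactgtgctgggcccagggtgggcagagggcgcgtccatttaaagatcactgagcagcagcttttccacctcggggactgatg
Hsd17b7, chr13:84722755-84723004, minus strand: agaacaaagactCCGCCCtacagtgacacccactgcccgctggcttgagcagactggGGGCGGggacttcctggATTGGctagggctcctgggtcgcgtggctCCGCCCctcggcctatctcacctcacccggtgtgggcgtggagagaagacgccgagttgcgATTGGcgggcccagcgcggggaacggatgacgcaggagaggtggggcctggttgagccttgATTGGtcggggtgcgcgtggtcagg

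The promoter table held 5 of the 8 members, Hmgcs1 being the other. An NF-Y box stood in 5 of these 5 windows, against 34.0% of 33469 windows of the same length, and an Sp1 box in 4 of 5 against 30.5%. Idi1 was the one without an Sp1 box. In Fdps the NF-Y boxes began 130 and 85 bases before the start, with 1 on each strand, and in Tm7sf2 the box began 89 bases before it. Idi1 had boxes at 66 and 35 bases, and Hsd17b7 had 3, at 176, 86 and 25 bases. The letters TCACNCCAC, 1 form of the sterol regulatory element, were found in 0 of 5 windows and in 0.974% of all, and the E-box CACGTG in 0 of 5 and 5.59% of all. No overlap between marked motifs occurred in the printed windows. These matches describe letters in a window and were not measured as binding sites, and with 5 windows they describe these genes alone.

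The values below are the deposited linear intensities after each array was multiplied by 1 factor to give the arrays equal medians (factors 0.938, 1.02 and 1.04 for unstimulated, phenylephrine and PAMH). The floor, below which a signal was treated as unmeasured, was percentile 40 of all scaled values (intensity 76.1), and a ratio was taken only where both arrays reached it. Where a gene had more than 1 probe set, the brightest (by its mean over the arrays) stood for it. The 11 myocyte markers with a probe set were above the floor on every array. As a technical yardstick, the spread of log2 ratios among probe sets of the same gene was taken about each gene's mean and pooled over genes. The SD was 0.27 for phenylephrine against unstimulated, 0.29 for PAMH against unstimulated and 0.23 for PAMH against phenylephrine (864, 867 and 866 genes). This SD contains no variation between cultures. Levels of different genes are not read as relative amounts of RNA, since each probe set has its own affinity. Intensities of different probe sets were still set side by side for the floor, the brightest probe set, the signal classes and the marker sums. Those uses carry this limit.

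All 7 measured members had a higher signal with each compound than without stimulus by their brightest probe sets, and none was lower. For Hsd17b7 that probe set was the brightest only through the treated arrays. Its other probe set had log2 ratios of 0.17 with phenylephrine and -0.05 with PAMH. With phenylephrine 6 of 7 were at least 1.5-fold higher, where 8.90% of 6571 measured genes were, and 3 were at least 2-fold higher, against 2.62%. With PAMH 7 of 7 were at least 1.5-fold higher, against 9.31% of 6549 genes, and 4 were at least 2-fold higher, against 2.05%. The median over the members was 0.99 on the log2 scale (1.98-fold) for phenylephrine and 1.06 (2.09-fold) for PAMH, while the median over all measured genes was 0.07 and 0.10. The members were proposed with such results known, so these counts describe them and are not independent evidence of a direction. Both comparisons use the same unstimulated array and share its deviations.

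**Figure D1:**
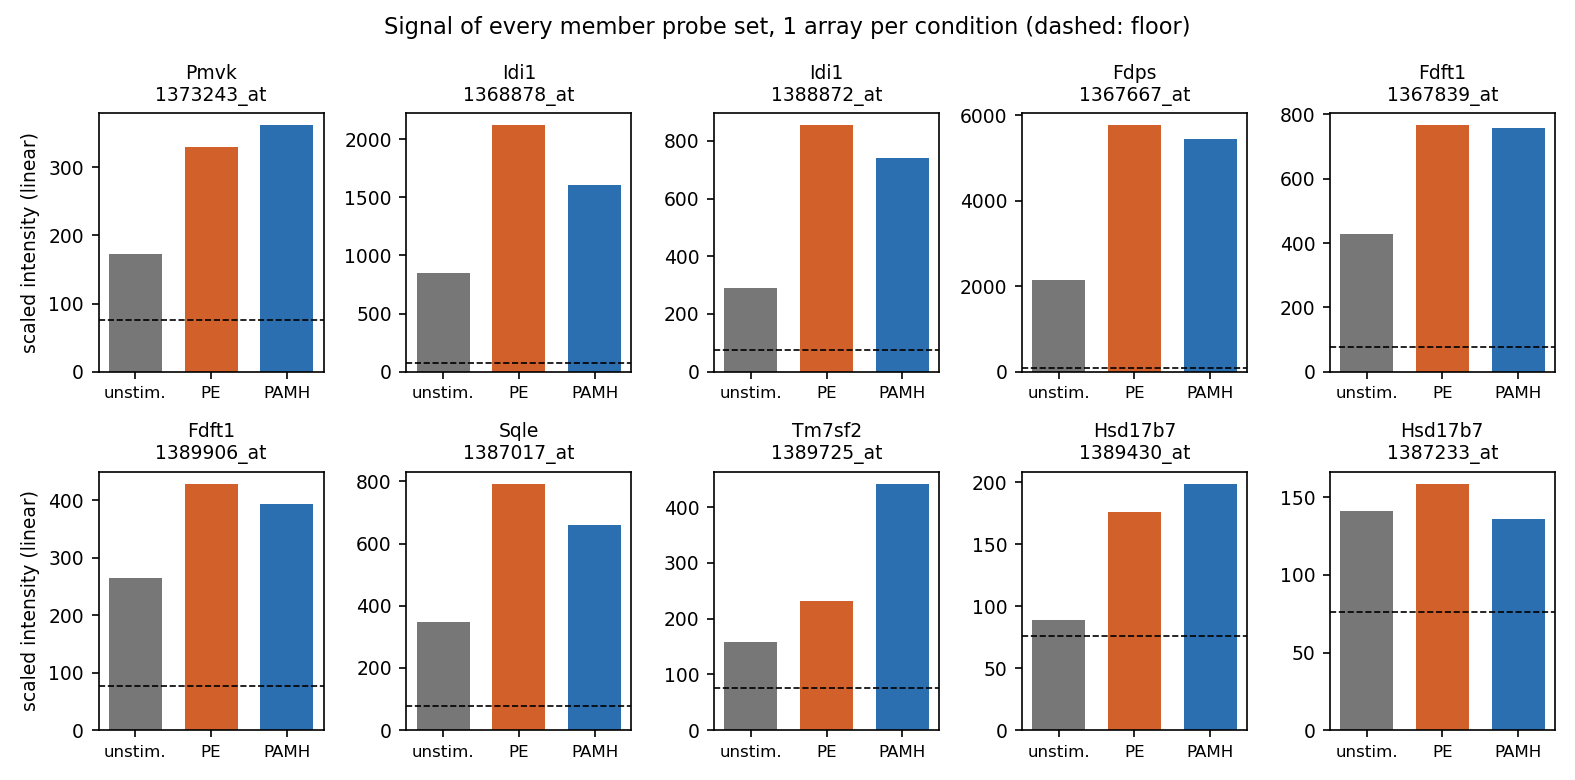
Scaled intensity (linear axis from 0) of the 10 member probe sets on the unstimulated, phenylephrine (PE) and PAMH arrays, 1 bar per array, so there are no error bars; the dashed line is the floor of 76.1. In 9 of the 10 panels both treated bars stand above the unstimulated one, and in the second Hsd17b7 panel the PAMH bar (136) lies below it (141).

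The members of the mevalonate segment come first. Pmvk, which phosphorylates phosphomevalonate, had a scaled intensity of 173 on the unstimulated array, 329 with phenylephrine and 361 with PAMH (probe set 1373243_at). It was 1.90-fold higher with phenylephrine and 2.09-fold higher with PAMH, and the treated arrays lay close together. Idi1, which interconverts the isoprenoid building blocks, read 849, 2118 and 1603 in the same order (1368878_at). It was 2.49-fold and 1.89-fold higher, so phenylephrine gave the higher signal. Its second probe set, 1388872_at, read 290, 854 and 740, which is 2.95-fold and 2.55-fold higher, in the same order of arrays.

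Fdps, which joins these units into farnesyl diphosphate, the branch point to sterols, dolichol, ubiquinone and protein prenylation, read 2151, 5765 and 5435 (1367667_at). It was 2.68-fold higher with phenylephrine, rank 61 of 6571 genes, and 2.53-fold higher with PAMH, rank 50 of 6549. Of the 7 members it was the furthest from the unstimulated array with phenylephrine. After cyclic loess normalization, which removes trends of the ratio with signal, its log2 ratios were 1.13 and 0.95 in place of 1.42 and 1.34.

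The members that make and oxidise squalene followed the same order of arrays as Idi1 and Fdps. Fdft1, squalene synthase, the first enzyme committed to sterols, read 428, 766 and 757 (1367839_at), which is 1.79-fold and 1.77-fold higher. Its second probe set, 1389906_at, read 264, 429 and 394, or 1.62-fold and 1.49-fold higher, just short of 1.5-fold for PAMH. Sqle, squalene epoxidase, a rate-limiting step of the later pathway, read 348, 792 and 660 (1387017_at). It was 2.27-fold higher with phenylephrine and 1.90-fold higher with PAMH.

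Tm7sf2 and Hsd17b7 act on the way from lanosterol to cholesterol. The sterol reductase Tm7sf2, which acts just after lanosterol is demethylated by Cyp51, read 159 unstimulated, 231 with phenylephrine and 442 with PAMH (1389725_at). It was 1.46-fold higher with phenylephrine, the lowest of the 7 and the only 1 short of 1.5-fold. It was 2.79-fold higher with PAMH, rank 37 of 6549 genes and the highest of the 7.

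Hsd17b7, a sterol ketone reductase that acts in removal of the methyl groups of lanosterol, was measured by 2 probe sets that differed. The brightest by its mean, 1389430_at, read 88.9, 176 and 199, or 1.98-fold and 2.24-fold higher, with the unstimulated value close to the floor. The other, 1387233_at, read 141, 159 and 136, which gives log2 ratios of 0.17 (phenylephrine) and -0.05 (PAMH). On the unstimulated array 1387233_at was the brighter of the 2, so 1389430_at stood for the gene through its values on the treated arrays. The annotation ties 1387233_at to a RefSeq transcript and 1389430_at to another GenBank record. With the mean of both probe sets the log2 ratios were 0.58 and 0.55, below 1.5-fold in each comparison, so the counts of members became 5 of 7 and 6 of 7.

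**Figure D2:**
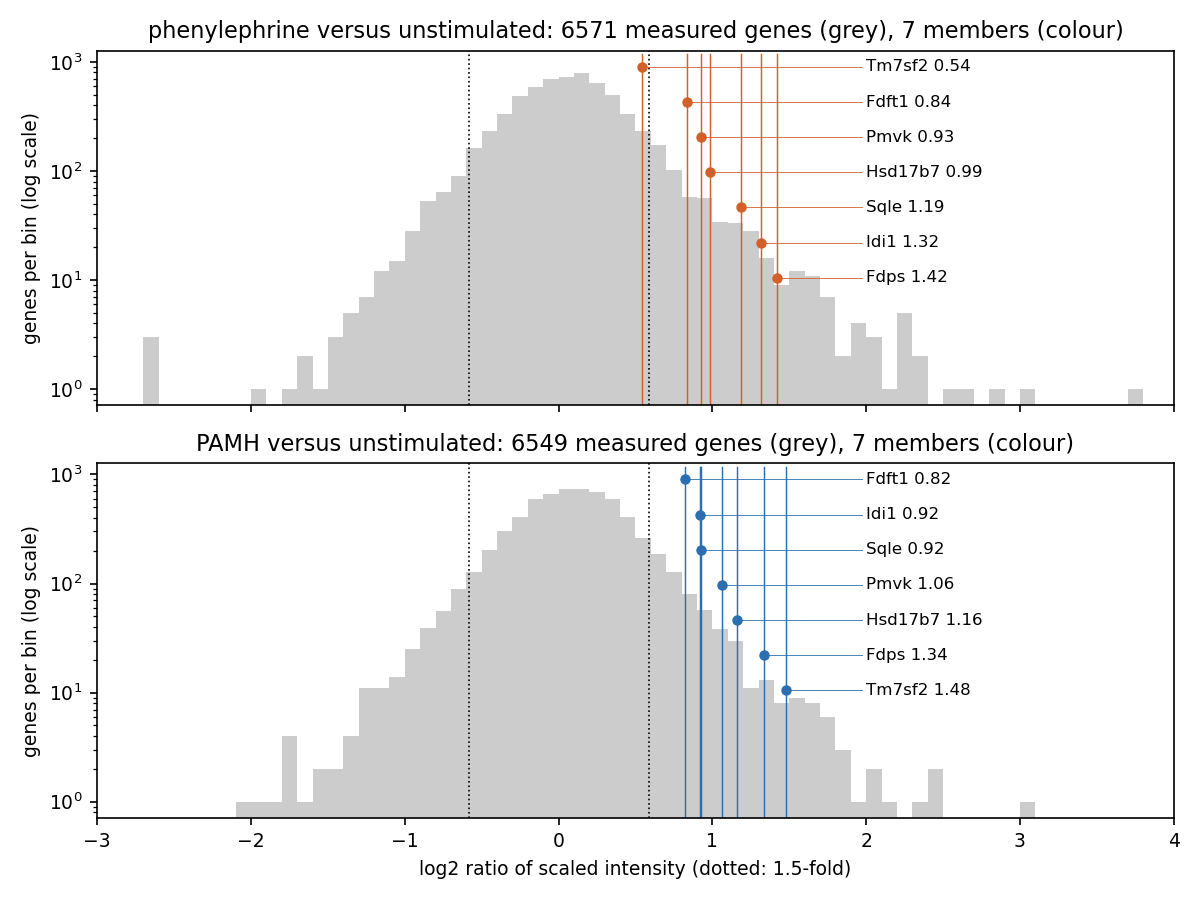
Histograms of the log2 ratio of scaled intensity for all measured genes (grey, log count axis) with the 7 members as coloured lines, phenylephrine against unstimulated above and PAMH against unstimulated below; dotted lines mark 1.5-fold. The members lie between 0.54 and 1.42 with phenylephrine and between 0.82 and 1.48 with PAMH, to the right of the bulk of genes in each panel.

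Ratios differed between classes of signal. The classes were set by the mean signal over all arrays, the treated ones included. A gene higher on those arrays was moved towards a brighter class, so part of this trend was built in. Idi1, Fdps, Fdft1 and Sqle belonged to the brightest of 4 equal signal classes (1600 genes each), whose median log2 ratio was 0.19 with phenylephrine and 0.25 with PAMH and of which 14.5% and 16.5% were at least 1.5-fold higher. Hsd17b7 belonged to the dimmest class, with medians of -0.01 and 0.01 and a share of 5.81% with phenylephrine. Tm7sf2 and Pmvk lay in the classes between, where 7.38% and 8.56% of genes passed 1.5-fold upward with phenylephrine and 7.31% and 8.19% with PAMH. On the deposited intensities with no further scaling, 5.98% of all genes were at least 1.5-fold higher and 7.83% lower with phenylephrine, where the scaled values gave 8.90% and 4.54%, and 5.33% and 7.84% with PAMH in place of 9.31% and 4.17%. The median over all genes was then -0.05 in both comparisons. The same 6 and 7 members were at least 1.5-fold higher on those deposited values.

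The arrays of the compounds were also set directly against each other, at doses that differ. Tm7sf2 was 1.91-fold higher on the PAMH array than on the phenylephrine array, a log2 ratio of 0.94 and rank 20 of 6593 genes. It was the 1 member of 7 past 1.5-fold, where 1.93% of all genes were that much higher and 2.67% that much lower, and no member was 2-fold higher (0.197% of all genes were). The log2 ratio stayed between 0.81 and 0.94 over the 11 settings tried, but only 1 probe set measures this gene. Idi1 (-0.40) and Sqle (-0.26) were lower with PAMH by more than the SD of 0.23 between probe sets of a gene, although the second Idi1 probe set gave -0.21. The other members, Pmvk (0.13), Hsd17b7 (0.18), Fdps (-0.08) and Fdft1 (-0.02), lay within that SD. The median over the members was -0.02, and that over all genes 0.04. Among the late enzymes that are no members, Dhcr7 (0.37), Ebp (0.31) and Nsdhl (0.29) were also higher with PAMH than with phenylephrine by more than that SD but short of 1.5-fold, whereas Sc5d (-0.38) was lower. Nsdhl had log2 ratios of 0.33 with phenylephrine and 0.62 with PAMH against the unstimulated array.

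**Figure D3:**
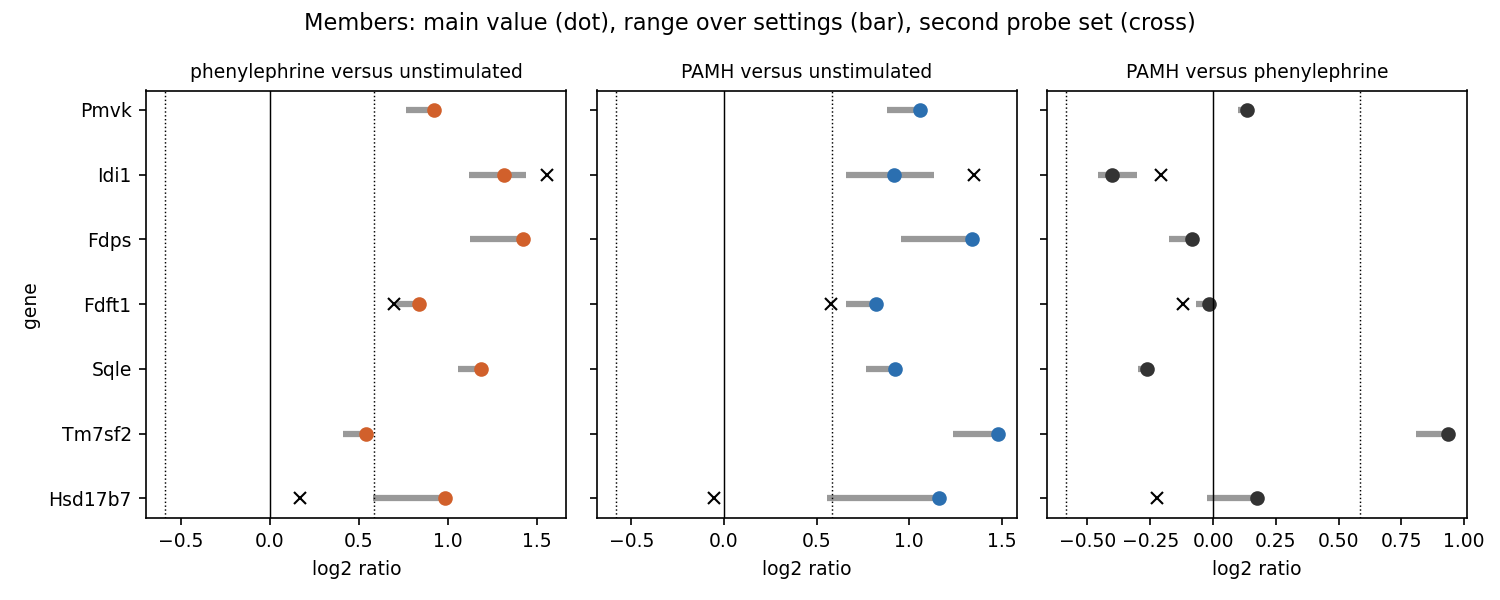
Log2 ratio of each of the 7 members in the 3 comparisons: the dot is the main value, the grey bar the range over all processing settings, the cross a second probe set, and dotted lines mark 1.5-fold. Tm7sf2 stands apart at 0.94 in the right panel, and the crosses of Hsd17b7 lie near 0 (0.17 and -0.05) in the left and middle panels.

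Other enzymes of the route were examined as a list of genes that are no members. Of 13 listed, 11 were measured, and 4 of them passed 1.5-fold upward for phenylephrine and 3 for PAMH, none downward, where 8.90% and 9.31% of all genes passed it upward. Their median log2 ratios were 0.39 and 0.45, which cannot be weighed against those of the members, since the members were chosen with results known. Msmo1, the oxidase that removes the methyl groups of lanosterol, read 1061, 1827 and 1816 and was 1.72-fold and 1.71-fold higher. Cyp51, the lanosterol demethylase, read 1574, 2629 and 2249, with log2 ratios of 0.74 and 0.51, and its second probe set gave 0.67 and 0.52. Acat2, the thiolase that makes acetoacetyl-CoA, was 1.59-fold and 1.63-fold higher. Mvk, mevalonate kinase, was 1.61-fold higher with phenylephrine and had a log2 ratio of 0.33 with PAMH.

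Several of these ratios lay near 1.5-fold, so their counts moved with the scaling. With phenylephrine the count of 4 became 2 on the deposited intensities, 2 after quantile normalization and 1 after cyclic loess. With PAMH the count of 3 became 1 in each of these settings. Of all genes, 5.98%, 7.26% and 7.23% passed 1.5-fold upward with phenylephrine in these settings, and 5.33%, 6.44% and 6.30% with PAMH. With 11 genes a count of 1 cannot be told from such shares. Lbr, which encodes a lamin-binding protein with the same sterol reductase activity as Tm7sf2, went the other way. It read 196, 157 and 158, log2 ratios of -0.32 and -0.31, and stayed below 0 in every setting. Lbr is named because its values stood out once seen.

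**Figure D4:**
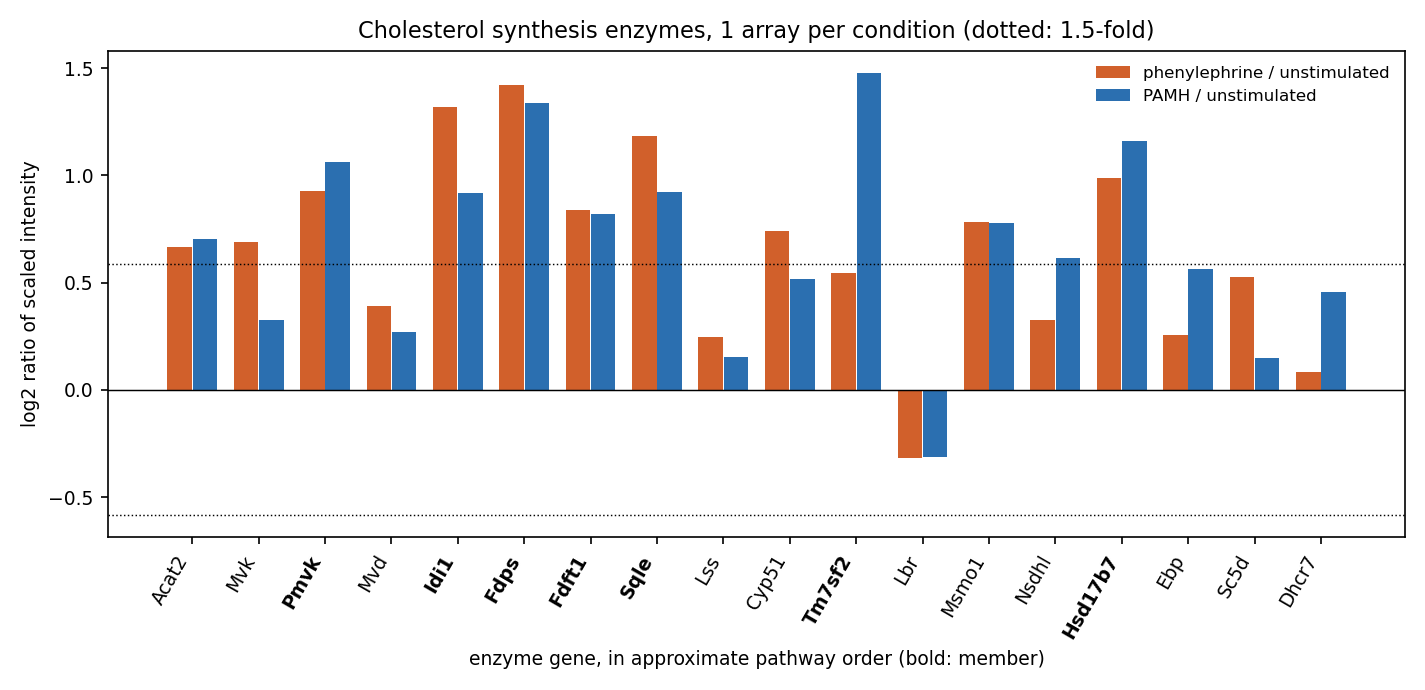
Log2 ratio of scaled intensity against the unstimulated array for the 18 measured enzyme genes in approximate pathway order (members in bold), orange for phenylephrine and blue for PAMH, 1 array per condition, dotted lines at 1.5-fold. All bars except those of Lbr (-0.32 and -0.31) point upward, and Fdps with phenylephrine (1.42) and Tm7sf2 with PAMH (1.48) are the highest; in their lowest settings Dhcr7 with phenylephrine (-0.04), Sc5d with PAMH (-0.0056) and Lss with PAMH (-0.0037) fall just below 0.

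By its brightest probe set, no measured regulator of the pathway passed 1.5-fold against the unstimulated array in either direction. Of all genes, 8.90% passed it upward with phenylephrine and 9.31% with PAMH, so for a list this short the count says little. Of 13 listed SREBP and LXR regulators 11 were measured, with median log2 ratios of 0.19 with phenylephrine and 0.24 with PAMH. With PAMH, Scap (0.57) and Srebf1 (0.55) were just short of 1.5-fold, and both were named after their values were seen. Srebf2 and Insig1, picked here for their known roles after their values were seen, are given as examples. Srebf2 read 303, 447 and 407, with log2 ratios of 0.56 and 0.43. Insig1, itself an SREBP target, read 1058, 1315 and 1456, with log2 ratios of 0.31 and 0.46. The second Srebf1 probe set gave log2 ratios of 0.39 with phenylephrine and 0.65 with PAMH. With the mean of both its probe sets, Srebf1 reached a log2 ratio of 0.60 with PAMH, past 1.5-fold.

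Enzymes of fatty acid synthesis and desaturation include many SREBP-1 targets. Of 15 listed, 13 were measured, and 6 of them passed 1.5-fold upward for phenylephrine and 5 for PAMH, none downward (medians 0.41 and 0.49), against 8.90% and 9.31% of all genes. Fasn, fatty acid synthase, read 918, 1568 and 2144, or 1.71-fold and 2.34-fold higher, and its second probe set had log2 ratios of 0.48 and 0.83. Scd, a stearoyl-CoA desaturase, read 508, 1089 and 992, or 2.14-fold and 1.95-fold higher. Scd2, another desaturase, was 1.55-fold and 1.82-fold higher, and Fads2, the delta-6 desaturase of polyunsaturated fatty acids, 1.62-fold and 1.71-fold. The other Scd2 probe sets gave log2 ratios of 0.83 and 0.43 with phenylephrine and 1.31 and 0.44 with PAMH. Others were near the unstimulated array, among them Acly, ATP citrate lyase (0.17 and 0.07 on the log2 scale), and, with PAMH, the desaturase gene Fads1 (-0.02). On the deposited intensities 3 and 4 of the 13 were past 1.5-fold, against 5.98% and 5.33% of all genes.

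Genes of cholesterol uptake, transport and esterification were mixed, with 6 of 8 log2 ratios above 0 with phenylephrine and 4 of 7 with PAMH. Their medians were 0.30 and 0.27, against 0.07 and 0.10 for all genes. The PAMH median was -0.05 with a floor at percentile 25. Of 14 listed, 8 were measured with phenylephrine, 1 of them past 1.5-fold upward and 0 downward, and 7 with PAMH, with 1 each way. Of all genes, 8.90% and 9.31% passed it upward and 4.54% and 4.17% downward. With so few genes these counts cannot be told from those shares. Vldlr, a lipoprotein receptor, read 347, 784 and 519, or 2.26-fold higher with phenylephrine and a log2 ratio of 0.58 with PAMH. Its other probe sets gave 1.13 and 0.81 with phenylephrine and 1.08 and 0.40 with PAMH. Abcg1, a sterol exporter, had log2 ratios of 0.37 and 0.69. Cav1, the caveolar protein caveolin, had -0.52 and -0.80 and was the only gene of the list past 1.5-fold lower with PAMH. The second Cav1 probe set gave -0.71 and -1.01, past 1.5-fold lower with both compounds. With phenylephrine Cav1 was past 1.5-fold lower in 4 of 11 settings.

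Markers of other cell types moved on the same arrays. In such bulk RNA fewer cells of a type and less RNA per cell cannot be told apart. The 13 fibroblast markers summed to 16169, 13851 and 11600 on the unstimulated, phenylephrine and PAMH arrays. Of 11 measured 1 was at least 1.5-fold lower with phenylephrine and 7 with PAMH. The phenylephrine count became 4 on the deposited values (7.83% of all genes), 4 after quantile normalization (5.92%) and 3 after cyclic loess (5.50%). The PAMH count became 7, 9 and 8 (7.84%, 5.74% and 5.54%). Thy1 had log2 ratios of 0.53 and 0.21 and Vim 0.02 and -0.06, although the second Thy1 probe set gave -0.53 with phenylephrine. The 8 smooth muscle markers summed to 7573, 16586 and 13804, with 5 and 4 at least 1.5-fold higher, and 1 lower with PAMH. Of these, Des is also made by heart muscle cells, and Acta2 by immature ones. The list did not move as 1: Myh11 had log2 ratios of 0.02 and -0.64, Smtn -0.36 and -0.19, and Mylk -0.30 and -0.58. Of all genes, 8.90% and 9.31% were at least 1.5-fold higher, and 4.54% and 4.17% lower. The 11 myocyte markers summed to 63873, 72700 and 86726, a sum carried by a few bright probe sets. Of these, 3 were at least 1.5-fold higher and 1 lower with phenylephrine, and 4 and 1 with PAMH. Their median log2 ratios were -0.02 and 0.30, and -0.31 and -0.22 after quantile normalization. No marker was at 0 on any array, but Pecam1, Kdr and Vwf of 5 endothelial markers and Cd68, Cd14, Ptprc, Lyz2 and C1qb of 8 macrophage markers were below the floor on all 3 arrays, and those lists summed to 256, 323 and 160 and to 454, 452 and 529. The part of these shifts in the ratios of the cholesterol enzymes was not tested.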

How the data were processed

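Expression was measured on 3 rat arrays (Affymetrix, by the form of the probe set names), 1 per group, with groups taken from the sample titles. The deposited values are probe set intensities on a linear scale for 15923 probe sets, of which 57 are controls; the software, background correction and scaling behind them are not recorded in the labels or the file (not given in the sources used here), and detection calls were not used. The deposited medians over non-control probe sets were 118, 108 and 106. Gene names came from the platform annotation (12783 probe sets with 1 symbol, 312 with several and 2771 with none; only the first were used), updated by gene identifier in a RefSeq gene table that held 12748 of them.

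Each array was scaled to a common median, and ratios were taken as log2 of scaled intensity with no offset, at or above the floor. A call means past 1.5-fold or 2-fold, with no test, because each group had 1 array. Alternatives were the deposited values, scaling on percentile 75, quantile and cyclic loess normalization, offsets of 16 and 50, floors at percentile 25 and 50 or none, the mean of all probe sets, and the 2-fold threshold. The ratio step was tested on simulated data with known folds. The members and gene lists were chosen with earlier results of these data known. Besides the members, the rule for names was up to 4 genes per pathway list and direction past 1.5-fold against the unstimulated array. The 5 genes nearest the members' median ratios were also named. Dhcr7, Ebp, Nsdhl, Sc5d, Lbr, Acly, Fads1, Scap, Srebf1, Srebf2, Insig1, Dhdds, Fnta and Rabggtb were named outside this rule, with their values known. Single cell type markers were also named outside it. The gene lists were other cholesterol synthesis enzymes, SREBP and LXR regulators, cholesterol uptake, fatty acid synthesis, isoprenoid branch enzymes and markers of 5 cell types. Python 3.11.15, numpy 2.4.6, pandas 2.3.3, matplotlib 3.10.9, R 4.3.3 and limma 3.58.1 were used.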

Additional observations from a re-analysis of the deposited data

How the results depend on the processing

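At a threshold of 2-fold the number of members past it was 3 with phenylephrine, 4 with PAMH and 0 for PAMH against phenylephrine. Of all genes, 2.62%, 2.05% and 0.197% were 2-fold higher. Of the other cholesterol synthesis enzymes 0 and 0 passed it against the unstimulated array. With PAMH, Pmvk, Fdps and Hsd17b7 fell short of 2-fold in some settings (lowest log2 ratios 0.88, 0.95 and 0.55). Idi1 passed it in some (highest 1.13). The other cholesterol synthesis enzymes past 1.5-fold numbered 2 (phenylephrine) and 1 (PAMH) on the deposited values, where 5.98% and 5.33% of all genes passed it. They numbered 2 and 1 after quantile normalization (7.26% and 6.44% of all genes), and 1 and 1 after cyclic loess (7.23% and 6.30%). At 1.5-fold the members' counts stayed within 5 to 6 for phenylephrine and 6 to 7 for PAMH over the 10 alternatives to scaling, offset, floor and probe set choice. A floor at percentile 50 left 6 measured members in these comparisons, without Hsd17b7. The members' median log2 ratio ranged from 0.77 to 1.06 with phenylephrine, from 0.88 to 1.06 with PAMH and from -0.07 to -0.02 between the compounds. No called value changed sign. An offset of 50 lowered Hsd17b7 to 0.70 and 0.84, since its unstimulated signal was near the floor. No paired analysis was possible because each group had 1 array.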

Other observations

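The isoprenoid branch enzymes, which use the pathway's intermediates for prenylation, dolichol and ubiquinone, showed no comparable ratios. Of 13 listed, 7 were measured, and none was 1.5-fold higher or lower with either compound, with median log2 ratios of 0.06 and 0.18 close to those of all genes (0.07 and 0.10). The phenylephrine median turned to -0.07 on the deposited intensities, where 1 gene was past 1.5-fold lower, to -0.03 after quantile normalization and to -0.02 after cyclic loess. Fnta, a subunit of the protein prenyltransferases, had log2 ratios of 0.11 and 0.25, and Rabggtb, a subunit of the Rab prenyltransferase, 0.19 and 0.34; both were picked after their values were seen.

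From a search of 4836 genes with signal at or above percentile 60 and the floor, only the members were left out. Nearest to the members' medians (0.99 and 1.06) in their pair of log2 ratios were 5 genes, whose links to the pathway were not examined. They were Dnaja4, a co-chaperone (0.99 and 1.06), the amino acid transporter gene Slc38a1 (0.98 and 1.10), Fxyd1, which encodes phospholemman of the sodium pump (1.03 and 1.05), Basp1 (0.94 and 1.05) and the stanniocalcin gene Stc1 (0.93 and 1.07). The distances were between 0.005 and 0.056 on the log2 scale, over 3 arrays, too few to show more than likeness of these ratios.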
